A study of Homo sapiens with 12 samples.

Results

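The ID family consists of 4 human genes, ID1, ID2, ID3 and ID4, which were taken by name from the 60754 genes of each expression table. The family was selected on measured values of these same libraries, which were known when it was proposed. The levels and fold changes of its members are therefore given as descriptions, with no test. ID proteins carry a helix-loop-helix domain but lack the basic stretch that contacts DNA. They pair with E proteins, the broadly expressed basic helix-loop-helix (bHLH) transcription factors, and the resulting dimers do not bind the E-box. In blood cells ID proteins are known for restraining E protein-driven lymphoid programmes, and ID genes are direct targets of bone morphogenetic protein (BMP) signalling through SMAD factors.

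Duocarmycin SA (DSA), a natural product that alkylates DNA in the minor groove, was tested on HL-60 and Molm-14, established human acute myeloid leukaemia cell lines, and RNA was sequenced in bulk. The 12 libraries formed 6 groups of 2. They were HL-60 cells without treatment or with 112.7 or 500 pM DSA for 36 h, and Molm-14 cells without treatment or with 11.1 or 100 pM DSA for 36 h. The labels give the controls as untreated, whereas the study's methods name a vehicle, and the lines also differed in medium and serum content. Nothing states that the libraries of a group came from separate cultures, so the spread between them may be technical.

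The libraries held 21177424 to 63927449 expected counts, and mitochondrial genes took 1.47 to 5.46% of them, with 5.46 and 4.64% at 500 pM DSA against 2.22 and 2.47% in control HL-60 cells. Replicates correlated at Pearson r of 0.9917 to 0.9959 over log2 CPM, the counts scaled to library size, and no pair agreed within sampling noise. The Molm-14 markers HOXA9, HOXA10, MEIS1, FLT3, CD33 and CSF1R summed to 108 to 136 CPM in HL-60 and 656 to 724 CPM in Molm-14 libraries. The HL-60 markers MPO, ELANE, PRTN3, AZU1, CTSG, CD33 and MYC summed to 7656 to 20778 CPM in HL-60 and 4199 to 4730 CPM in Molm-14 libraries. Between the untreated lines 5 of the 6 Molm-14 markers were lower in HL-60, and CD33, which is on both lists, was higher (0.97, SE 0.044). The HL-60 list was split, with MPO, PRTN3, CD33 and MYC higher and ELANE, AZU1 and CTSG lower in HL-60, and MPO alone had 15708 and 15646 CPM there, against 154 and 144 CPM in Molm-14. The gene lists below were read against all 13422 genes tested with edgeR's quasi-likelihood test at a Benjamini-Hochberg adjusted p under 0.05. At 500 pM DSA 35.8% of these were higher and 37.8% lower than in control HL-60 cells, and at 112.7 pM 24.2% were higher and 27.4% lower. At 100 pM the shares in Molm-14 cells were 22.9% higher and 21.9% lower, and at 11.1 pM 0.969% higher and 0.238% lower. Between the untreated lines 43.9% were higher and 40.1% lower in HL-60. With total counts as the only scaling, the split at 500 pM was 6304 higher and 3376 lower genes in place of 4802 and 5075, and at 112.7 pM it was 4231 and 2696 in place of 3254 and 3683.

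On GRCh38, ID1 (ENSG00000125968.9) spans chr20:31605283-31606515 on the plus strand, with 2 annotated transcripts. ID2 (ENSG00000115738.10) spans chr2:8678845-8684461 on the plus strand with 4 transcripts, ID3 (ENSG00000117318.9) chr1:23557926-23559501 on the minus strand with 3, and ID4 (ENSG00000172201.12) chr6:19837370-19842197 on the plus strand with 1. ID2 overlaps the antisense long non-coding RNA ID2-AS1, which held 5 to 51 counts per library (median 25), against 951 to 4412 for ID2. The sources used here do not say whether strand entered the counting, so reads of the overlapping stretch cannot be told apart. The closest annotated neighbour of ID1 is MIR3193, 671 bases away, at 0 counts throughout. ID3 has no overlapping gene in the annotation.

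The 250 bases before the RefSeq start site of ID1, ID2 and ID3 are shown because these were the 3 members detected. The windows, from RefSeq on GRCh38.p14, are chr20:31605039-31605288 (plus strand), chr2:8681806-8682055 (plus strand) and chr1:23559502-23559751 (minus strand), each written 5′ to 3′ along the gene. The ID1 window runs 6 bases into the longer of its GENCODE transcripts, and the ID2 window lies within the span of its longest transcript, ID2-201. Capitals mark every match to 7 motifs searched on both strands: the E-box CANNTG, the GC-rich SMAD motif GGCGCC, the SMAD element core CAGAC, the CCAAT box, the TATA box written TATAAA, and the early growth response (EGR) motif GCGTGGGCG with its G form GCGGGGGCG.
ID1: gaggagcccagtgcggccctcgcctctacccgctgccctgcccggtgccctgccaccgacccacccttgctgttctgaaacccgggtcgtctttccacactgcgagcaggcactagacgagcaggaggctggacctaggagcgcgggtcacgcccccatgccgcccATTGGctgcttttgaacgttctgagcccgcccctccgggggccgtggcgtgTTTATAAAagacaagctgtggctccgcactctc
ID2: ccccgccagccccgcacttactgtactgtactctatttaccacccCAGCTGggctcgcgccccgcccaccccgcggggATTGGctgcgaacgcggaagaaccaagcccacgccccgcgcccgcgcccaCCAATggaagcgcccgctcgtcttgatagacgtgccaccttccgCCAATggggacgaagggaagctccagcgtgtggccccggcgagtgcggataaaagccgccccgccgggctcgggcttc
ID3: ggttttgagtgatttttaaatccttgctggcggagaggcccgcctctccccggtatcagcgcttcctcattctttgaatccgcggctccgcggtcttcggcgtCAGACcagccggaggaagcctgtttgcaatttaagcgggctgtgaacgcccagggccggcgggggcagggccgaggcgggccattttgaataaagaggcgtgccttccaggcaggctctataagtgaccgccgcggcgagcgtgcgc
The ID1 window held 1 CCAAT match and 2 TATAAA matches that overlap on opposite strands. The ID2 window held 3 CCAAT matches and 1 E-box match, and the ID3 window only 1 CAGAC match. Of 35116 RefSeq promoter windows of this length, 32.0% held CCAAT, 10.7% TATAAA, 61.8% an E-box, 16.4% GGCGCC, 0.72% GCGTGGGCG and 4.72% GCGGGGGCG, and 13345 of them held CAGAC. The ID4 window (chr6:19837120-19837369) held 1 match each to the E-box, the SMAD element core, the CCAAT box, the TATA box and the G form of the EGR motif. GC content was 66.0% for ID1, 69.2% for ID2, 62.0% for ID3 and 78.8% for ID4, against a median of 58.0% over all windows. The letters alone do not show binding.

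ID3, which encodes a member best known from B and T cell development, showed the widest range of the family. It had 11 and 18 counts in control HL-60 libraries, 31 and 38 at 112.7 pM and 273 and 374 at 500 pM DSA. In the TMM-scaled CPM used for all members this was 0.295 and 0.305 without DSA, 1.49 and 1.28 at 112.7 pM and 12.8 and 11.5 at 500 pM. Each step of HL-60 dose was higher than the one below it, and the share of all genes that do the same was not counted. The fitted log2 fold change was 5.31 (SE 0.199, n = 2 each), a 39.7-fold difference, at 500 pM, and 2.17 (SE 0.271) at 112.7 pM. At 500 pM, 58 of the 13422 tested genes had a larger fitted fold change. In Molm-14 cells ID3 stayed between 0.554 and 0.924 CPM, at 21 and 23 counts without DSA, 31 and 32 at 11.1 pM and 20 and 19 at 100 pM. Its log2 fold change was 0.41 (SE 0.256) at 11.1 pM and -0.26 (SE 0.281) at 100 pM, which lay within 1 standard error of 0.

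ID1, a classical BMP target gene, stood above its controls at the high dose of each line and near them at the low dose. In HL-60 cells it had 29 and 66 counts without DSA (0.778 and 1.12 CPM), 22 and 27 at 112.7 pM (1.06 and 0.907 CPM) and 208 and 294 at 500 pM (9.74 and 9.03 CPM). The low-dose values fell within the range of the 2 control libraries, and both high-dose libraries lay far above them. The log2 fold change was 3.25 (SE 0.157), 9.51-fold, at 500 pM and -0.01 (SE 0.243) at 112.7 pM. The low-dose value ran from -0.21 without control library 1 to 0.32 without control library 2, and the 500 pM value from 3.05 to 3.58 under the same omissions. In Molm-14 cells ID1 had 6.01 and 5.44 CPM without DSA, 5.99 and 5.71 CPM at 11.1 pM and 8.22 and 7.68 CPM at 100 pM. The high-dose libraries again lay above all others of the line, with a log2 fold change of 0.48 (SE 0.127), 1.39-fold, while that at 11.1 pM was 0.03 (SE 0.131).

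ID2, known for its part in natural killer and dendritic cell development, was the most abundant member in all 12 libraries. In HL-60 cells it measured 44.7 and 42.1 CPM without DSA, 45.8 and 51.3 CPM at 112.7 pM and 68.9 and 73.5 CPM at 500 pM. The low-dose library 1 exceeded the higher control library by little. The log2 fold change was 0.17 (SE 0.055) at the low and 0.72 (SE 0.053), 1.65-fold, at the high dose. In Molm-14 cells ID2 measured 106 and 112 CPM without DSA, 118 and 120 CPM at 11.1 pM and 105 CPM in both libraries at 100 pM. There the log2 fold change was 0.12 (SE 0.047) at 11.1 pM and -0.05 (SE 0.047) at 100 pM. Among the 3 detected members ID2 had the smallest fitted change at 500 pM, and 3055 genes had a larger one, against 399 for ID1.

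**Figure D1:**
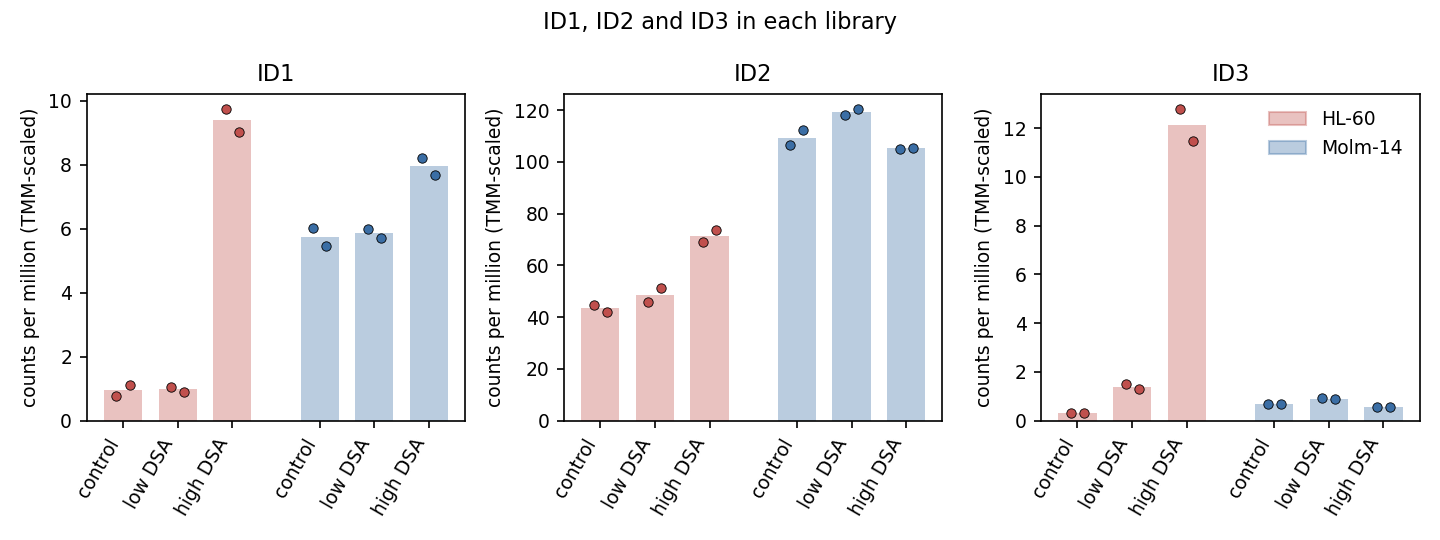
TMM-scaled CPM (vertical axes, linear from 0) of ID1, ID2 and ID3 by group, with HL-60 left of Molm-14 and doses running from control to high in each line. Points are the 2 libraries of a group and bars their mean. ID3 reaches 12.8 and 11.5 CPM in HL-60 at 500 pM, and ID2 in Molm-14 stays between 105 and 120 CPM.

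ID4, best known from neural and mammary tissue, had 0 counts in 11 of the 12 libraries and 1 count in HL-60 library 1 at 500 pM. It did not pass the filter on low counts, which the other 3 members did. A count of 0 allows up to 3 counts, which is 0.0509 to 0.1446 CPM depending on the library. Its level was below what this depth can show in either line, and no fold change was formed.

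Compared at matched doses within a line, the members did not move in step. At 500 pM the log2 fold changes of ID3, ID1 and ID2 in HL-60 cells were 5.31, 3.25 and 0.72, and at 112.7 pM they were 2.17, -0.01 and 0.17. From the low to the high HL-60 dose ID1 and ID3 differed by similar amounts, 3.26 (SE 0.182) and 3.14 (SE 0.175), and ID2 by 0.55 (SE 0.056). In Molm-14 cells the same step was 0.44 (SE 0.125) for ID1, -0.18 (SE 0.047) for ID2 and -0.67 (SE 0.262) for ID3. The high-dose and low-dose comparisons share their control libraries. Doses differed between the lines, and the difference between their responses was not tested. In bulk RNA, fewer cells of a type and less RNA per cell cannot be told apart.

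**Figure D2:**
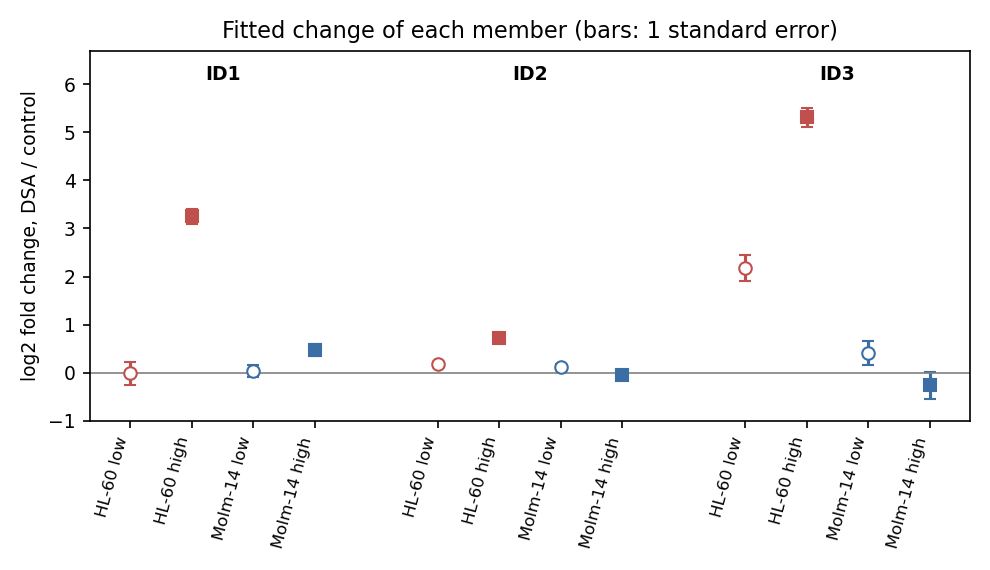
Fitted log2 fold change of DSA-treated over control cells (vertical axis) for ID1, ID2 and ID3 at the low (open circles) and high (filled squares) dose of HL-60 (red) and Molm-14 (blue). Bars are 1 standard error from the edgeR fit. The HL-60 values at 500 pM are 3.25, 0.72 and 5.31, and the Molm-14 values at 100 pM are 0.48, -0.05 and -0.26.

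Per length, in TPM, which corrects for transcript length and library size, the family's makeup also differed by dose. The TPM values carry no TMM factors, unlike the CPM values above. In HL-60 cells ID1, ID2 and ID3 together gave 65.1 and 62.5 TPM without DSA, 73.2 and 81.8 TPM at 112.7 pM and 146 and 150 TPM at 500 pM. ID2 supplied 97.7 and 96.9% of this without DSA and 77.8 and 79.8% at 500 pM, where ID3 supplied 13.3 and 11.8% and ID1 8.89 and 8.37%. At 500 pM ID3 had 19.4 and 17.7 TPM, above ID1 with 13.0 and 12.5 TPM, whereas in control HL-60 cells ID3 had 0.430 and 0.450 TPM and ID1 averaged 1.27 TPM. In Molm-14 cells the family summed to 162 and 169 TPM without DSA, 178 TPM in both libraries at 11.1 pM and 156 and 164 TPM at 100 pM, and ID2 supplied between 93.1 and 95.3% in every library.

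The average transcript length that RSEM assigned to ID2, weighted by isoform abundance, was 975 and 959 bases in control HL-60 libraries, 910 and 889 bases at 112.7 pM and 877 and 902 bases at 500 pM. The DSA-treated HL-60 libraries lay below both controls, and the Molm-14 libraries lay between 913 and 940 bases with no order by dose. The annotated ID2 transcripts are 474, 623, 1299 and 2041 bases long, so a shift among them can change the average. In TPM, which divides by this length, the log2 fold change of ID2 at 500 pM was 0.91 in place of 0.72 in CPM. TPM also lacks the TMM factors used for CPM, and the part of length and of scaling in the difference was not tested. With total counts as the only scaling the log2 fold change of ID2 was also 0.91. The ID1 value at 500 pM was 3.33 in TPM and 3.43 with total counts, and the ID3 value was 5.49 with total counts.

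**Figure D3:**
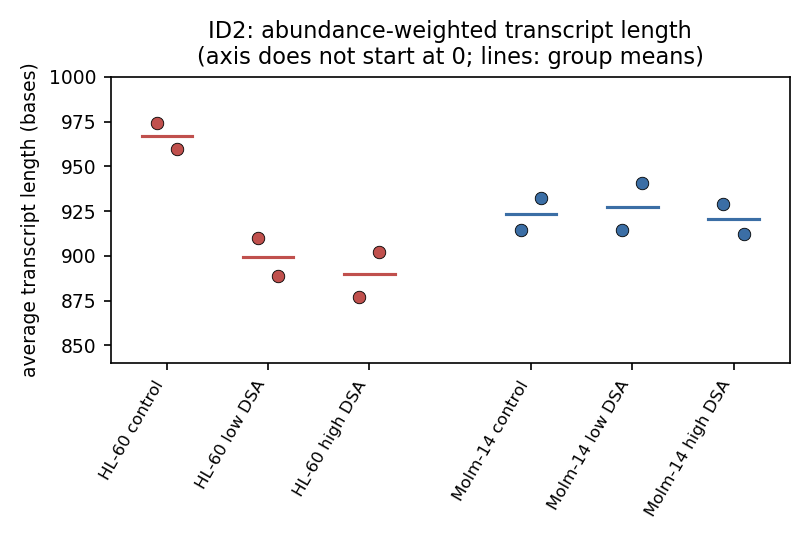
Abundance-weighted average transcript length of ID2 in bases (vertical axis, not starting at 0) in the 12 libraries, HL-60 left. Points are libraries and lines group means. The HL-60 controls lie at 975 and 959 bases, above the 4 DSA-treated HL-60 libraries at 877 to 910 bases.

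**Figure D4:**
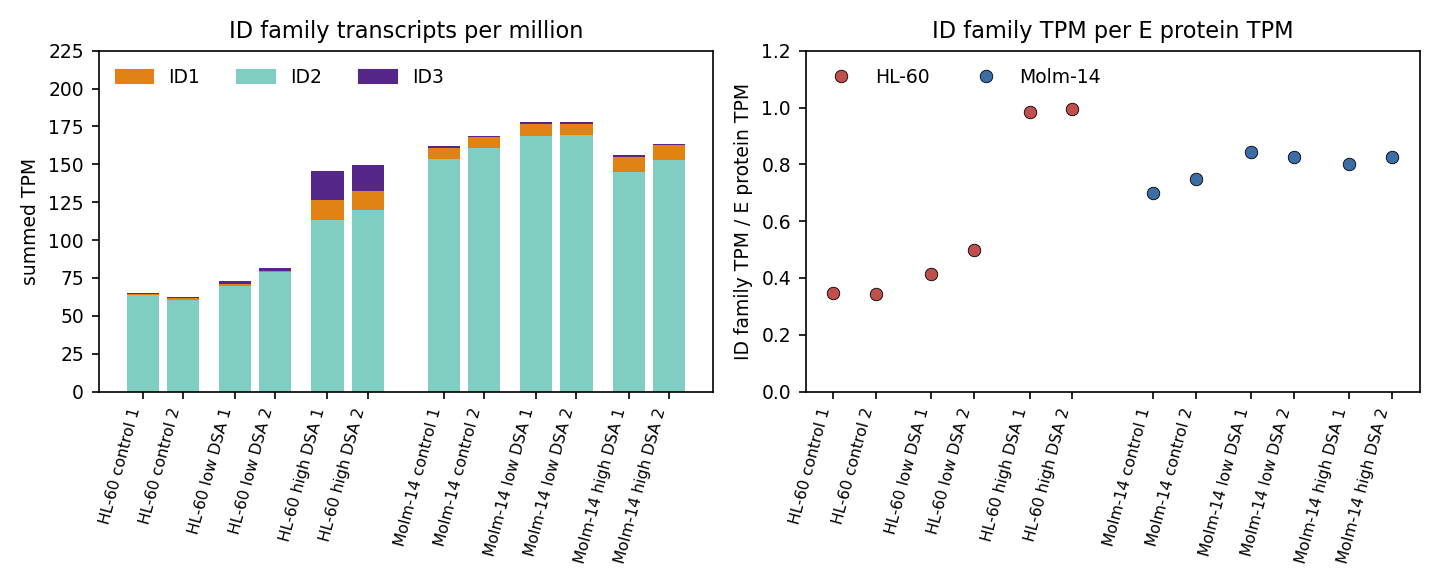
Left, summed TPM of ID1, ID2 and ID3 in each of the 12 libraries (stacked bars from 0). Right, the summed ID family TPM divided by the summed TPM of the E proteins TCF3, TCF4 and TCF12 in the same libraries. In HL-60 the ratio is 0.347 and 0.345 in control cells and 0.983 and 0.996 at 500 pM, with all 6 Molm-14 libraries between 0.699 and 0.843.

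The E proteins, the main dimer partners of the ID family, fell in HL-60 cells at 500 pM, 3 of 3 (median log2 fold change -0.53, against 0.00 over all tested genes). Among all tested genes 37.8% were lower at that dose. In edgeR's log2 fold changes, TCF12 (HEB) fell by 0.61 (SE 0.035, adjusted p = 1.47e-11), at 100 CPM in both treated libraries against 154 and 151 CPM. TCF3 (E2A) fell by 0.31 (SE 0.034, adjusted p = 1.08e-07) and TCF4 (E2-2) by 0.53 (SE 0.096, adjusted p = 6.51e-05). At 112.7 pM TCF12 (-0.37) and TCF4 (-0.31) fell and TCF3 was at -0.06 (adjusted p = 0.139), and TCF4 no longer passed without low-dose library 2 (adjusted p = 0.328) or control library 1 (0.0778). In Molm-14 cells at 100 pM TCF12 (-0.25) and TCF3 (-0.14) fell, and TCF4 was at -0.26 (SE 0.116, adjusted p = 0.0787). The family's TPM per E protein TPM was 0.347 and 0.345 in control HL-60 cells, 0.415 and 0.499 at 112.7 pM and 0.983 and 0.996 at 500 pM. In Molm-14 cells it was 0.699 and 0.747 without DSA, 0.843 and 0.825 at 11.1 pM and 0.801 and 0.827 at 100 pM. These are ratios of RNA, not of protein.

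Of 21 tissue-restricted bHLH factors, which bind DNA together with an E protein, 9 passed the filter on low counts in this data set. At 500 pM in HL-60 cells 3 rose and 1 fell, against 35.8 and 37.8% of all tested genes. LYL1, a haematopoietic bHLH factor, fell by 0.77 (SE 0.049, adjusted p = 7.28e-11) to 120 and 108 CPM, against 185 and 202 CPM in control cells. MSC (3.08, SE 0.573) rose to 0.655 and 0.338 CPM, against 0.0804 and 0.0339 CPM, and ATOH8 (1.92, SE 0.446) to 2.06 and 1.63 CPM, against 0.644 and 0.356 CPM. TWIST1 was the other factor called, with 0 and 3 counts at 500 pM and 0 in both controls. That call rests on high-dose library 2, without which its log2 fold change was 0 (adjusted p = 1), and it was also lost without control library 1 (adjusted p = 0.0532) or control library 2 (0.105). In Molm-14 cells at 100 pM TWIST1 fell by 0.70 (SE 0.132, adjusted p = 0.000311), and no other factor of the list passed. Of the HES, HEY and BHLHE repressors, 6 of 12 passed the filter, and 5 rose and 1 fell in HL-60 cells at 500 pM. BHLHE41 (3.02, SE 0.235), BHLHE40 (0.66, SE 0.078), HES1 (1.44, SE 0.325) and HEYL (1.27) rose, HES4 rose to 0.421 and 0.184 CPM, against 0.0268 and 0.0170 CPM, and HES6 fell by 0.25. HEYL did not pass without control library 1 (adjusted p = 0.07) or high-dose library 1 (0.0633), and HES6 not with total counts (0.349). With a minimum mean of 50 counts, which leaves low-count genes such as HES4 out of the test, 1 of these repressors rose. In Molm-14 cells BHLHE40 rose (0.49, SE 0.069), and HES1 (-0.95, SE 0.252) and HES6 (-0.32) fell.

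ID proteins also bind the retinoblastoma family and some ETS and PAX factors. Of 10 such partners, 5 rose and 3 fell in HL-60 cells at 500 pM, and 2 rose and 3 fell in Molm-14 cells at 100 pM. The shares of all tested genes were 35.8% higher and 37.8% lower in HL-60, and 22.9% and 21.9% in Molm-14. ELK4 fell by 0.61 (SE 0.056, adjusted p = 1.18e-08) and RBL1 by 0.31 in HL-60 cells, and ELK1 (0.45) and PAX8 (2.29) rose. RBL1 also fell in Molm-14 cells, by 0.48 (SE 0.050, adjusted p = 2.86e-07), where RB1 (0.22) and ETS2 (0.16) rose and ETS1 fell by 0.24.

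Of the BMP ligands, 5 of 17 passed the filter and 1 was called at 500 pM in HL-60 cells. BMP8B rose by 0.45 (SE 0.134, adjusted p = 0.00523), a call that was lost without control library 2 (adjusted p = 0.121) or high-dose library 2 (0.0641). BMP6 was at 1.08 (SE 0.522, adjusted p = 0.0704), BMP10 at 0.32, BMP4 at -0.24, and BMP2 had 0 counts in the HL-60 groups compared. In Molm-14 cells at 100 pM BMP8B (-0.32, SE 0.062) and BMP2 (-0.28, SE 0.079) fell, BMP2 not without control library 2 (adjusted p = 0.0753), and BMP4, BMP6 and BMP10 did not pass. Of 6 TGF-beta and activin ligands measured, 4 rose and 0 fell in HL-60 cells at 500 pM. At that dose 35.8% of all tested genes were higher and 37.8% lower. From their control levels INHBE had little room to fall and GDF15 none. INHBE, an activin subunit gene, had 1.97 and 2.09 CPM against 0.0268 and 0.170 CPM (log2 fold change 4.12, SE 0.386, adjusted p = 1.46e-08). GDF15, a stress-induced cytokine, had 25 and 40 counts against 0 in both controls, at least 18.3-fold higher when the floor of 3 counts per library stands for 0. GDF11 (0.72) and TGFB1 (0.29) rose, TGFB3 (-0.55) did not pass, and TGFB2 did not either, at 0 and 0.123 CPM against 0.107 and 0.288 CPM. In Molm-14 cells INHBE fell by 2.74 (SE 0.255) and GDF11 by 0.22, TGFB1 (0.24) and GDF15 (1.18) rose, and TGFB2 and TGFB3 did not pass. GDF11 was lost without high-dose library 1 (adjusted p = 0.0655), and GDF15 without control library 1 (0.192), high-dose library 1 (0.0949) or high-dose library 2 (0.0876).

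Of 11 receptor genes, 7 rose and 1 fell in HL-60 cells at 500 pM (median 0.36), and 5 rose and 1 fell in Molm-14 cells at 100 pM (median 0.17). The shares of all tested genes were 35.8% higher and 37.8% lower in HL-60, and 22.9% and 21.9% in Molm-14. ENG, the endoglin co-receptor, had 212 and 194 CPM at 500 pM against 107 and 109 CPM (0.91, SE 0.045, adjusted p = 1.61e-12). ACVRL1 (ALK1), a type I receptor that acts through the BMP SMADs, had 2.34 and 2.33 CPM against 0 and 0.153 CPM (4.60, SE 0.438), and ACVR1 (ALK2) rose by 1.74 (SE 0.198). ACVR2B, a type II receptor, fell by 0.60 (SE 0.082). It was also the receptor that fell in Molm-14 cells at 100 pM. That call was lost when any 1 of the libraries compared was left out (-0.32 to -0.37). BMPR2, which rose there, lost its call in the same omissions (0.17 to 0.18) and with DESeq2 (adjusted p = 0.139). In Molm-14 cells ACVRL1 rose by 1.05 (SE 0.276, adjusted p = 0.00426), at 3.02 and 2.92 CPM against 1.42 and 1.44 CPM. ACVR1 (0.42), TGFBR1 (0.19) and ENG (0.16) rose too, and without control library 2 the number of receptors that rose there was 2. In that fit ACVR1 had an adjusted p of 0.0587 and ENG one of 0.106. ENG was also lost without high-dose library 1 (0.143), and TGFBR1 without control library 1 (0.0679) or high-dose library 2 (0.0626).

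Among the SMADs, SMAD3, which transmits TGF-beta and activin signals, rose in HL-60 cells at 500 pM to 53.6 and 55.8 CPM, against 26.8 and 26.7 CPM in control cells (1.03, SE 0.053, adjusted p = 2.57e-12). SMAD9, of the BMP branch, rose to 1.83 and 1.94 CPM, against 0.456 and 0.373 CPM (2.20, SE 0.325). SMAD5, also of the BMP branch, fell by 0.42 (SE 0.073, adjusted p = 3.89e-05), and SMAD1 was at 0.00 and did not pass. SMAD4, the common partner (-0.28), and SMAD2 (-0.17) fell, but with total counts as the scaling SMAD4 did not pass (-0.10, adjusted p = 0.177) and SMAD2 stood at 0.01. In Molm-14 cells only SMAD3 of the 6 was called (0.24, SE 0.064), and not without control library 2 (adjusted p = 0.0596).

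Inhibitors of the pathway rose as well, 11 of 17 in HL-60 cells at 500 pM with 2 lower (median 0.46). The inhibitory SMADs SMAD7 (0.93, SE 0.083, adjusted p = 7.53e-09) and SMAD6 (0.70, SE 0.087), themselves SMAD targets, were among them, as were the secreted antagonists NBL1 (2.58, SE 0.194) and FST (2.25, SE 0.208). In Molm-14 cells 3 rose, among them FSTL3 (0.59, SE 0.112), and 1 fell, NOG (-0.42, SE 0.107). The shares of all tested genes there were 22.9% higher and 21.9% lower. SMAD6 and SMAD7 were at -0.09 and 0.17 there and did not pass. NOG was lost without high-dose library 2 (adjusted p = 0.0512), and the number that rose was 1 without control library 2 or high-dose library 1. Of 10 other BMP and TGF-beta target genes, 6 rose and 0 fell at 500 pM, against 35.8 and 37.8% of all tested genes. DLX3, DLX5, TBX20 and CCN2 had 0 counts in both HL-60 controls and could not fall. MSX1 had 0 and 0.0848 CPM there. TGFBI, an extracellular matrix gene, had 22.2 and 22.8 CPM against 0.778 and 0.848 CPM (4.77, SE 0.178, adjusted p = 8.73e-14). RUNX2 (0.69) and the homeobox gene MSX1 (3.55, SE 0.702) rose too. The list's median was 1.64, or 0.71 with genes at 0 in a compared group set to their bounds. In Molm-14 cells 1 of the 10 rose and 1 fell, DLX3 by 0.51 (SE 0.110).

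Of 16 other factors known to act on ID gene promoters or enhancers in some cell type, 10 rose and 2 fell in HL-60 cells at 500 pM, and 7 rose and 7 fell in Molm-14 cells at 100 pM. The shares of all tested genes were 35.8% higher and 37.8% lower in HL-60, and 22.9% and 21.9% in Molm-14. MYC, whose product activates ID2, had 961 and 947 CPM at 500 pM against 2231 and 2056 CPM (-1.17, SE 0.034, adjusted p = 8.17e-16). EGR2 had 14.4 and 10.6 CPM against 1.07 and 0.933 CPM (3.63, SE 0.180), and ATF3, a repressor of ID1 in epithelial cells, 22.0 and 18.4 CPM against 4.37 and 5.02 CPM (2.07, SE 0.097). CEBPA, a myeloid factor, fell by 0.57 (SE 0.035). In Molm-14 cells MYC fell by 0.53 (SE 0.034) and CEBPB by 1.16 (SE 0.106), and CEBPA (0.23) and KLF6 (0.54) rose. The number lower in Molm-14 cells was 3 without control library 1, and the number higher 4 without control library 2 or high-dose library 1.

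Of the growth arrest targets, 7 of 8 rose and 0 fell in HL-60 cells at 500 pM (median 2.14). Among all tested genes 35.8% were higher and 37.8% lower there. THBS1 had little room to fall, at 0.0536 and 0.136 CPM in control cells. CDKN1C (0.644 and 0.475 CPM) and CDKN2B (0.697 and 0.356 CPM) were low there as well. CDKN1A (p21), which E proteins activate and ID proteins oppose, had 19.6 and 20.3 CPM against 0.563 and 0.373 CPM (5.47, SE 0.124, adjusted p = 4.08e-17). CDKN1C (3.99, SE 0.229), THBS1, which ID1 represses (5.75, SE 0.356), and CDKN2C (0.57) rose as well. In Molm-14 cells CDKN1A rose by 1.65 (SE 0.037) to 1008 and 1013 CPM, against 332 and 310 CPM, CDKN2C fell by 0.37 (SE 0.038), and THBS1 was called with 10 and 5 counts against 1 and 2. That last call was lost without either control library or high-dose library 1 (adjusted p = 0.0737 to 0.227). Of 16 lymphoid and dendritic E protein targets, 10 rose and 3 fell in HL-60 cells at 500 pM, against 35.8 and 37.8% of all tested genes. IL7R (2.26, SE 0.133), IRF7 (1.65, SE 0.098) and NOTCH1 (0.57, SE 0.042) were higher and BCL11A lower (-1.20, SE 0.053). Some of the list had little room to fall, such as CIITA (0.0804 and 0.0339 CPM in control cells). IRF8 lost its call with only the 4 libraries compared (0.71, adjusted p = 0.0778), and GFI1 with total counts (-0.03, adjusted p = 0.451). In Molm-14 cells 4 rose and 3 fell, near the 22.9 and 21.9% of all tested genes. CIITA (1.31), NOTCH1 (0.54) and IRF8 (0.25) were among the higher and SPIB (-0.85) among the lower ones.

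ID proteins are short-lived, are marked for destruction by the anaphase-promoting complex and are stabilised by the deubiquitinase USP1. Of 21 genes of this machinery, 16 fell and 1 rose in HL-60 cells at 500 pM (median -0.35), and 11 fell and 2 rose in Molm-14 cells at 100 pM (median -0.14). The shares of all tested genes were 37.8% lower and 35.8% higher in HL-60, and 21.9% and 22.9% in Molm-14. USP1 had 99.0 and 103 CPM against 192 and 181 CPM in HL-60 cells (-0.88, SE 0.040, adjusted p = 4.41e-13), and fell by 0.42 (SE 0.040) in Molm-14 cells. The complex subunits CDC27 (-0.84, SE 0.046) and ANAPC1 (-0.63, SE 0.040) and the activator CDC20 (-0.50, SE 0.034) fell in HL-60 cells, and CDC20 (-0.77, SE 0.035), ANAPC11 (-0.36) and the activator FZR1 (CDH1, -0.27) in Molm-14 cells. Without high-dose library 1 the Molm-14 counts were 6 lower and 0 higher. With total counts as the scaling the HL-60 counts were 12 lower and 4 higher.

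**Figure D5:**
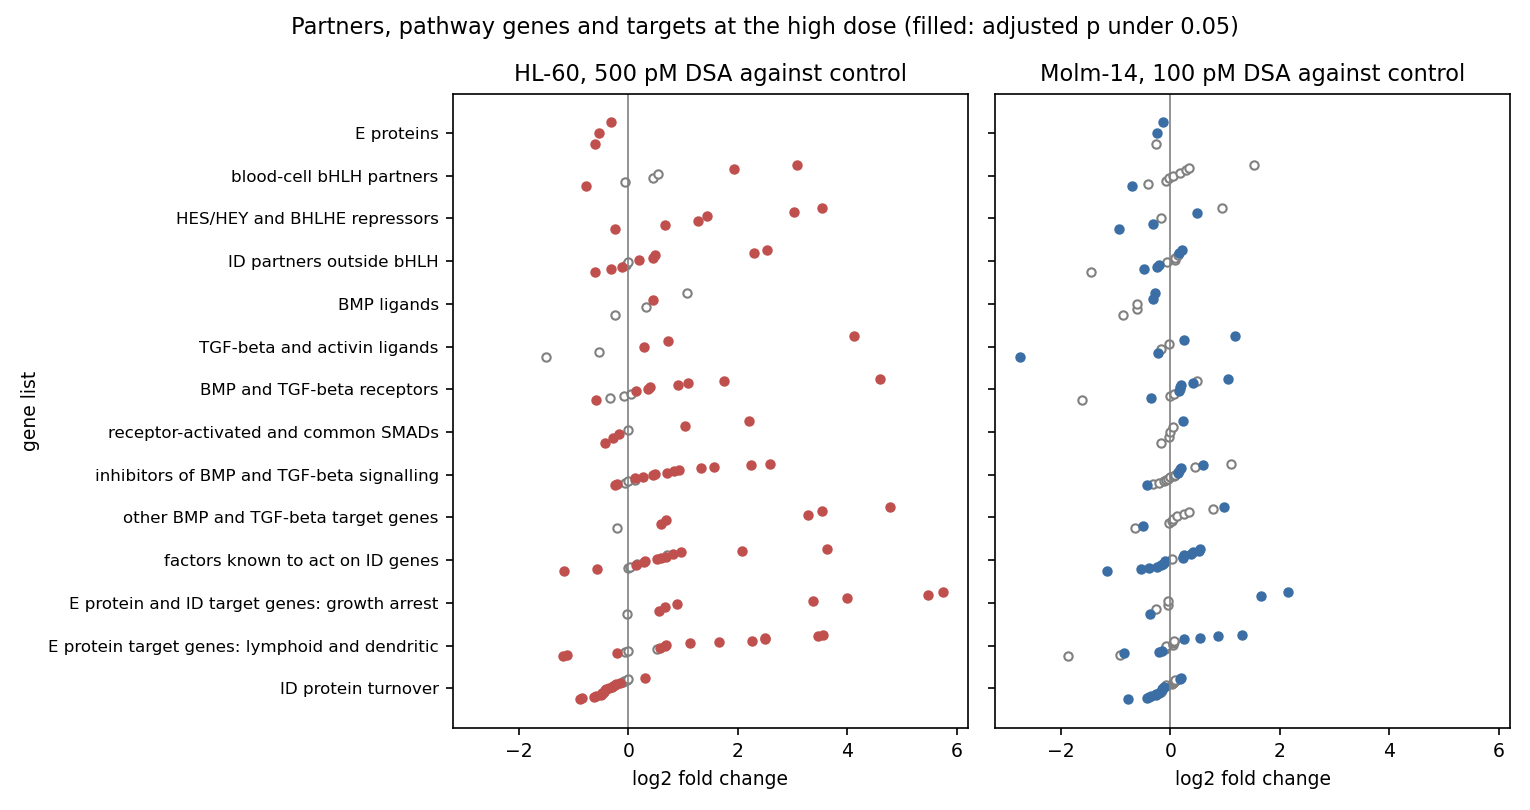
Log2 fold change of high-dose DSA over control (horizontal axes) for the genes of 14 lists, HL-60 at 500 pM left and Molm-14 at 100 pM right. Each point is 1 gene that passed the filter, filled where the adjusted p was under 0.05. Genes with 0 counts throughout a compared group are not drawn (10 of 142 genes in HL-60 and 4 in Molm-14). All 3 E proteins lie left of 0 in both panels, and the growth arrest genes of HL-60 reach 5.75.

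Markers of other cell types moved with the HL-60 dose. The stromal, endothelial and epithelial list of 10 summed to 46.9 and 45.9 CPM at 500 pM against 10.4 and 9.38 CPM in control cells, with 2 to 4 of its genes at 0. The lymphoid list of 7 summed to 75.8 and 71.1 CPM against 15.1 and 15.8 CPM, with 1 to 3 genes at 0. The erythroid and platelet list of 9 summed to 8.47 and 8.39 CPM against 1.64 and 1.39 CPM, and 6 to 8 of the 9 were at 0. Most of each sum in control HL-60 cells came from 1 gene. PECAM1 held 9.17 and 8.53 CPM of the stromal, endothelial and epithelial sum, and NKG7 held 11.99 and 12.54 CPM of the lymphoid sum. ITGA2B held 1.58 and 1.32 CPM of the erythroid and platelet sum. A higher sum is therefore not a measure of its whole list. All 10 markers that passed the filter rose at 500 pM, among them NKG7, PECAM1 and ITGA2B, against 35.8% of all tested genes. Some had little room to fall, such as KRT18 (0.0268 and 0.0509 CPM in control cells) and COL1A1 (0.0268 and 0.119 CPM). The HL-60 markers summed to 7656 CPM in both libraries, against 20696 and 20778 CPM, with 6 of 7 lower. The part of these shifts in the ID1 and ID3 values was not tested. Mitochondrial share moved in the same direction, and its part was not tested either. In Molm-14 cells at 100 pM, where ID1 was also above its controls, the stromal, endothelial and epithelial list summed to 163 and 163 CPM against 96.3 and 90.4 CPM, and the lymphoid list to 40.1 and 38.3 CPM against 27.7 and 27.7 CPM. Of the 10 markers that passed the filter, PECAM1 (126 and 127 CPM against 55.4 and 54.4 CPM) and NKG7 (0.52) rose there and 0 fell, and the erythroid and platelet list summed to 0.221 and 0.392 CPM against 0.158 and 0.149 CPM. Of these 3 lists 4, 2 to 3 and 8 genes were at 0 in the 100 pM libraries. Mitochondrial genes took 4.09 and 2.72% of counts at 100 pM against 1.47 and 1.68%, and the part of these shifts in the ID1 value was not tested.

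The low-dose comparison in HL-60 cells shares its controls with the high-dose one. SMAD3 (0.57, SE 0.055), ENG (0.39, SE 0.046), NBL1 (1.26, SE 0.227), STAT5A (0.94, SE 0.121) and CDKN1A (1.56, SE 0.254) rose, and USP1 (-0.59, SE 0.039), SMAD5 (-0.48, SE 0.074), SMAD4 (-0.39), SMAD2 (-0.21), LYL1 (-0.28) and MYC (-0.22) fell. SMAD2 did not pass without low-dose library 2 (-0.12, adjusted p = 0.0739). SMAD7 (0.02), SMAD6 (0.18) and SMAD9 (0.81, SE 0.381) did not pass, and 0 of 5 BMP ligands were called in either direction. BHLHE41 (1.69, SE 0.260), TGFB1 (0.23) and GDF11 (0.25) rose, and GDF11 did not pass without control library 2 (adjusted p = 0.0624). HEYL (1.14) passed as well, with adjusted p values up to 0.322 when libraries were left out. The turnover list had 13 lower and 1 higher of 21, with 7 lower under total-count scaling, and the growth arrest list 6 of 8 higher, or 3 without control library 1 or low-dose library 2. At 11.1 pM in Molm-14 cells only 3 genes of the lists were called. CCN2, a TGF-beta target, fell by 0.85 and KLF4 by 0.51, and CDKN1A rose by 0.16. Each of the 3 calls was lost without control library 1 (adjusted p = 0.0738, 0.358 and 0.0676), and over all tested genes 3 were then higher and 1 lower, against 130 and 32 with it.

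Untreated HL-60 cells had less of each detected member than untreated Molm-14 cells. ID1 had 0.778 and 1.12 CPM against 6.01 and 5.44 CPM (log2 difference -2.54, SE 0.164), ID2 44.7 and 42.1 CPM against 106 and 112 CPM (-1.34, SE 0.050) and ID3 0.295 and 0.305 CPM against 0.664 and 0.688 CPM (-1.16, SE 0.298). By TPM, ID2 ranked 2220th of 19868 protein-coding genes in HL-60 and 740th in Molm-14, and the order within each untreated line was ID2, ID1, ID3. At 500 pM HL-60 levels of ID1 (9.74 and 9.03 CPM) and ID3 (12.8 and 11.5 CPM) lay above every Molm-14 library, at 5.44 to 8.22 CPM and 0.554 to 0.924 CPM. Of the genes tested, 43.9% were higher and 40.1% lower in HL-60, and the receptor, inhibitor and BMP ligand lists lay near these shares. Of 11 receptors 5 were higher and 4 lower, of 17 inhibitors 8 and 7, and of 5 BMP ligands 2 and 2. All 6 SMADs were higher in HL-60, SMAD5 by 2.01 (SE 0.084), SMAD1 by 1.64 (SE 0.123), SMAD2 by 0.96, SMAD3 by 0.67, SMAD4 by 0.35 and SMAD9 at least 4.49-fold, with 17 and 22 counts against 0. BMP2 had 0 counts in HL-60 and 664 and 726 in Molm-14, at least 325-fold lower, and the target genes DLX5 and CCN2 were at least 1085-fold and 238-fold lower. BMP8B (-3.89, SE 0.085), NOG (-3.73, SE 0.143), ACVR1 (-3.30, SE 0.161) and CDKN1A (-9.48, SE 0.080) were lower in HL-60. TCF4 (1.16, SE 0.099) and TCF12 (0.32) were higher in HL-60 and TCF3 lower (-0.50, SE 0.032). Of 10 other target genes 7 were lower and 1 higher in HL-60, and of 16 factors acting on ID genes 13 were lower and 3 higher, MYC (1.76, SE 0.034) among the higher ones.

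Genes whose log2 CPM followed a member most closely were ranked by Pearson r over the 6 libraries of a line where the mean count reached 50. These 6 points fall into 3 dose groups, share depth and dose, and were not tested. In HL-60 cells the closest to ID3 were IL1RN (r = 0.9997), the interleukin-1 receptor antagonist, the kinase gene MAP2K3 (0.9996) and LFNG (0.9996), a modifier of Notch, and 455 of 10900 genes exceeded 0.99. The closest to ID1 were DNAJB4 (0.9977), FAM177A1 (0.9968) and ENSA (0.9967), with 27 genes over 0.99. Among the closest to ID2 were KLF10 (0.9983), a TGF-beta-inducible gene, and MBOAT2 (0.9970), with 28 genes over 0.99. In Molm-14 cells they were APH1B (0.9988), PLEKHM1 (0.9979) and TTPAL (0.9975) for ID1, and IFT172 (0.9927), TFAP2A (0.9918) and WDR90 (0.9867) for ID2. ID3 was below 50 counts in Molm-14 cells and was not ranked there. By Spearman rho the ranking could not order the closest genes, since 376 genes for ID3, 230 for ID2 and 8 for ID1 tied at 1 in HL-60 cells.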

How the data were processed

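The authors trimmed reads with Trim Galore 0.60, aligned them to hg38 with STAR 2.7 and quantified genes of GENCODE release 31 with RSEM 1.31. The deposited tables give, per the file headers, expected counts, TPM and average transcript lengths for each gene, and no source says whether strand was used. Expected counts were rounded and fitted with edgeR 4.0.16 (R 4.3.3) by the quasi-likelihood test, with TMM factors, the filterByExpr filter, all 12 libraries and 1 mean per group. Calls used a Benjamini-Hochberg adjusted p under 0.05 over the 13422 protein-coding genes that passed, of 19868 of GENCODE 44 annotation level 1 or 2. The standard error is the log2 fold change over the square root of F. Symbols came from GENCODE 44, which held 60261 of the 60754 identifiers, and 45 Y copies of pseudoautosomal genes were left out. Levels are TMM-scaled CPM, or the authors' TPM.

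The members and the gene lists were chosen with earlier results of these data known. The text names the members, the genes of lists with 6 or fewer measured genes, up to 4 genes with the smallest p of each other list and comparison, and the 3 genes most like each member by Pearson r. Others, such as marker genes, calls lost under an alternative and low-dose examples, were chosen after their values were seen. Some genes that this rule names are not reported here. Alternatives were limma-voom (limma 3.58.1), DESeq2 1.42.0, other scalings and filters, other gene types, fewer libraries, a replicate block, each library left out in turn and, for members, TPM. Intervals were not formed for single libraries, and the floor of 3 counts covers counting error only.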

Additional observations from a re-analysis of the deposited data

Results flagged for a closer look

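At the high dose, the fitted log2 fold changes of ID2 and ID3 were positive in HL-60 and negative in Molm-14 cells. The HL-60 minus Molm-14 difference in log2 fold change was 0.7778 for ID2 (0.72 at 500 pM in HL-60, -0.05 at 100 pM in Molm-14) and 5.5742 for ID3 (5.31 and -0.26). The Molm-14 values were of the size of their errors (SE 0.047 for ID2 and 0.281 for ID3), so neither shows a fall. For ID3 they rest on 20 and 19 counts at 100 pM against 21 and 23 in controls. The doses, media and serum differed between the lines, and none of the differences given here was tested.

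Other genes named above were flagged for the same reason. The difference was 6.8664 for INHBE, 2.8941 for NBL1, 2.3834 for HES1, 2.1204 for CEBPB and 1.744 for NOG. It was 0.9441 for GDF11, 0.9365 for CDKN2C, 0.7724 for BMP8B, 0.7267 for ETS1 and 0.512 for ELK1, and -0.792 for CEBPA and -0.7414 for ELK4. For NBL1, ELK1 and ELK4 the Molm-14 value did not pass the test. The value of 5.4642 for DLX3 depends on the prior count, since both HL-60 controls held 0 counts. At the low dose the difference was 1.5202 for NBL1 and -0.2507 for SMAD2, and neither gene passed in Molm-14 cells. SMAD2 did not pass in HL-60 cells without low-dose library 2 either (adjusted p = 0.0739).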

How the results depend on the processing

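Over 14 alternatives per comparison, the log2 fold changes at 500 pM in HL-60 cells ran from 3.05 to 3.58 for ID1, 0.67 to 0.91 for ID2 and 5.23 to 5.49 for ID3, and ID1 at 112.7 pM kept its sign in 5 of 14. At 11.1 pM in Molm-14 cells 308 genes were higher and 160 lower without the filter on low counts, and 208 and 63 with only the 4 libraries compared, against 130 and 32. Leaving out 1 library in turn gave 3 to 83 higher and 1 to 19 lower genes there. It leaves 1 library in an arm, assumed to vary like the other groups. The same omissions gave 2355 to 2486 higher and 2227 to 2441 lower genes at 100 pM in Molm-14 cells, 2441 to 2741 and 2966 to 3304 at 112.7 pM, 4389 to 4516 and 4784 to 4844 at 500 pM, and 5578 to 5682 and 5126 to 5272 between the untreated lines. With total counts as the only scaling, 3376 genes were lower at 500 pM in place of 5075, and the median of all genes stood at 0.18. Under it RB1 (0.1422), RBL2 (0.0735), ETS2 (0.1811), SMAD2 (0.0098), CDKN1B (0.1619), FZR1 (0.1634), ANAPC7 (0.0348) and ANAPC11 (0.1115) turned positive. Of 710 list gene results, 553 kept their call in every alternative.

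Samples with the same replicate number deviated together weakly at most (r from -0.0697 to 0.1778 in Molm-14 and -0.0832 to 0.0632 in HL-60). No pairing was used in the main fit, and a low r cannot exclude it. With the replicate block 116 genes were higher and 29 lower at 11.1 pM, 3057 and 2911 at 100 pM, 3219 and 3664 at 112.7 pM, 4766 and 5078 at 500 pM, and 5662 and 5178 between the lines. Low counts limit ID3 in Molm-14 cells, at 19 to 32 counts, and ID4.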
